A study of Mus musculus with 47 samples.

Results

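The RNA levels of 8 genes for the recognition of apoptotic cells were measured in 12 mouse macrophage RNA-seq libraries, 6 from bone marrow-derived macrophages (BMDMs) and 6 from Raw264.7 cells. The genes were Mertk, Axl, Gas6, Pros1, Mfge8, Itgav, Itgb5 and Lrp1. They were found by gene symbol, and all 8 were present among the 51912 genes of the BMDM tables and among the 12771 to 23772 genes of the 4 Raw264.7 tables. The other 35 of the 47 samples of the series were not analysed here.

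Efferocytosis is the engulfment of dying cells, a main task of macrophages in tissues. A dying cell exposes phosphatidylserine on its surface, and macrophages bind it either with receptors of their own or through bridging molecules that hold the lipid at one end and a receptor at the other. Mertk and Axl encode receptor tyrosine kinases of the TAM family. Their shared ligand Gas6 is such a bridge, and so is protein S (Pros1), which binds Mertk. Mfge8 encodes a bridge to integrins that hold the αv chain (Itgav), of which αvβ5 (Itgav with Itgb5) is one. Lrp1 encodes a large endocytic receptor with many ligands that also takes part in engulfment.

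BMDMs were grown with M-CSF for 5 days from C57BL/6 mice. The WT group came from Zmynd8 fl/fl littermates, whose Zmynd8 allele has loxP sites around exons 6 and 7, without Cre. Zmynd8 cKO mice carried the same floxed allele with Lyz2-Cre, which is active in macrophages and neutrophils. Cells of each genotype were left untreated (M0), given LPS, a lipid of the bacterial outer membrane, at 100 ng/ml for 6 h (M1), or given the cytokine IL-4 at 20 ng/ml for 6 h (M2). The Raw264.7 cells, a mouse macrophage-like line, comprised Zmynd8 KO, Zmynd8 KO + Zmynd8 (the rescue with WT protein) and Zmynd8 KO + D/E-A, a rescue in which acidic residues of ZMYND8 were replaced by alanine. The others were p65 KO, p65 KO + WT and p65 KO + K122R, all given LPS, with p65 (the Rela product) mutated from lysine to arginine in K122R. For the first 3 the labels give no treatment. The study's text describes the RNA-seq of the D/E-A rescue and of the rescue with WT ZMYND8 as made after LPS, which the labels of these libraries do not give, and the treatment of the Zmynd8 KO library was not given in the sources used here. The column used for p65 KO + WT names WT and LPS but not the knockout. KO cells came from lentiviral CRISPR, and clonality was not given in the sources used here. The questions were how loss of ZMYND8, its acidic residues or the p65 residue changed in K122R relate to macrophage gene expression. Per the study's methods, 3 biological replicates were mixed into each BMDM library, so each group has 1 library, no value has a replicate error, and no test within a treatment was possible.

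The labels were checked first. Levels are given as CPM (counts) or RPM (recovered reads), scaled to a library total of 1000000. Gene-level Zmynd8 stood at 87.1 (WT) and 81.5 (cKO) CPM in M0, 79.0 and 86.8 in M1, and 128 and 151 in M2. A count over the whole gene does not isolate the floxed exons, so the cKO libraries are named by their labels. In Raw264.7 cells the deposited Zmynd8 value was 116.5 in the Zmynd8 KO library and 506 in the Zmynd8 rescue. The KO value is the 1 value of that library that is not a whole number of reads, so how it was made is not known and it is a weak check of the label. Rela stood at 50.6 RPM in p65 KO, 102 in p65 KO + WT and 351 in p65 KO + K122R. Xist had 7109 to 8467 reads in the 3 Zmynd8 lines and 0 to 3 in the 3 p65 lines, although Raw264.7 is a line from a male mouse. The labels of these libraries give Raw264.7 as the cell type and C57BL/6 as the strain, which is not the strain the line came from. The libraries are named by their labels, and the files do not settle which cells they hold. All 8 neutrophil markers (S100a8, S100a9, Camp, Ngp, Ltf, Mpo, Elane, Ly6g) had reads in the Zmynd8 lines. There they summed to 4422 RPM in D/E-A, 6966 in KO and 10353 to 10384 in the rescue. In the p65 lines, where 3 of the 8 are listed, they summed to at most 0.319 RPM. All 5 B cell markers also had reads in the Zmynd8 lines, summing to 140 to 193 RPM. In the p65 lines, where 4 of the 5 are listed, they summed to 5.95 to 8.83 RPM. In BMDMs they summed to 1.56 (WT) and 4.69 (cKO) CPM in M0, 0.96 and 0.98 in M1, and 11.1 and 17.2 in M2. The neutrophil markers summed to 2.33 to 4.22 CPM in M0 and M1 BMDMs but to 382 (WT) and 514 (cKO) in M2, with none at 0 there. All 8 macrophage markers were detected in every library, summing to 9707 to 19171 CPM in BMDMs, 5651 to 10155 RPM in the Zmynd8 lines and 2353 to 2774 RPM in the p65 lines. In each treatment this sum, which includes Lyz2, the locus that carries Cre, was lower in cKO than in WT (15027 against 18513 CPM in M0). Without Lyz2 the other 7 summed to 7562 (WT) and 7825 (cKO) CPM in M0, 6637 and 6815 in M1, and 10230.1 and 10167 in M2. Dendritic cell markers summed to at most 16.3 CPM in BMDMs and 65.2 RPM in Raw264.7 cells, and fibroblast markers to at most 2.01 CPM and 12.2 RPM. The part of these other cell type genes in the results below was not tested, and with 1 library in each group no comparison can be repeated without the library concerned.

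The promoters of Mertk, Axl and Gas6 are shown because the receptors and their ligand stood at opposite ends of the LPS comparison below. Each run is 300 bases of RefSeq (GRCm38.p6), read 5′ to 3′ on the strand of the gene from 250 bases before the RefSeq start site. Capitals mark matches to a κB motif, the site type bound by NF-κB, searched on both strands as GGGANNNNCC. The windows lie at chr2:128698665-128698964 (+) for Mertk, chr7:25788684-25788983 (-) for Axl and chr8:13494486-13494785 (-) for Gas6.
Mertk: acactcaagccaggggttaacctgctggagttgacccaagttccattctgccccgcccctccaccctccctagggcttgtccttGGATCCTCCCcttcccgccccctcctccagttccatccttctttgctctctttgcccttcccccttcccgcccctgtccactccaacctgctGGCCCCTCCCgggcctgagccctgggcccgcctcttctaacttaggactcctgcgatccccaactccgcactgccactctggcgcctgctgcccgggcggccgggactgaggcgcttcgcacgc
Axl: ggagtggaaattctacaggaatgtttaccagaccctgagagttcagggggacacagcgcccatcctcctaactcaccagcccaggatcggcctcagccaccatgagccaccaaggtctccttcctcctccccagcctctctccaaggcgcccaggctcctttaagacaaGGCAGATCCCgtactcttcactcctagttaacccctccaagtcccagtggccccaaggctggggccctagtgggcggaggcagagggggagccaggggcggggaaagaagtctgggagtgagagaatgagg
Gas6: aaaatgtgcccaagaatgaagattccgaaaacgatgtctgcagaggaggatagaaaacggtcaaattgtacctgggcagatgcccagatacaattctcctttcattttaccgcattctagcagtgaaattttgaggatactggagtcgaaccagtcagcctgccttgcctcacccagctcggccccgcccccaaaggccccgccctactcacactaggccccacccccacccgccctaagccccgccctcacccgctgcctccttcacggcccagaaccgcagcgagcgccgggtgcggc
RefSeq promoters were matched for 8 of 8 genes. The κB letters occurred in 4 of the 8 (Mertk with 2 matches, Axl, Pros1 and Itgb5) and in 20.7% of 32851 mouse promoters of this length. The matches of Mertk began 166 and 74 bases before the start and that of Axl 81 bases before it, all reading on the opposite strand. A STAT motif (TTCNNNGAA, in 8.3% of promoters) matched in Pros1 and Lrp1. An interferon response element (GAAANNGAAA, 3.44%), an AP-1 site (TGANTCA, 7.81%), an E box (CACGTG, 7.15%) and an LXR element (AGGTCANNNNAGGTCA, 0.0152%) matched in none of the 8, and the Gas6 window held none of the 6 motifs. A match to these letters is a description and not a site.

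In the gene annotation (mm10), Mertk lies at chr2:128698997-128803162 (+), Axl at chr7:25756500-25788733 (-), Gas6 at chr8:13465374-13494535 (-) and Pros1 at chr16:62854307-62929346 (+). Mfge8 lies at chr7:79133768-79149060 (-), Itgav at chr2:83724108-83806917 (+), Itgb5 at chr16:33829665-33949338 (+) and Lrp1 at chr10:127538157-127621148 (-). Values below are counts over exons of the whole gene. Of the exonic bases, 634 of 10744 in Itgav overlap the antisense gene Gm13684, and 34 of 2548 in Gas6 overlap antisense Tmem255b. Whether counting used strand was not given in the sources used here.

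The BMDM libraries held 22597408 to 28386612 counts, and levels of 1 gene across libraries are given as CPM. Levels of different genes are compared only as the deposited TPM, a transcript measure that divides by transcript length. Lrp1 had the highest TPM of the 8 in each of the 6 BMDM libraries, from 258 (WT M1) to 734 (WT M0), and made up 36.8% to 55.9% of their summed TPM. Pros1 had the lowest TPM in 5 libraries and stood just above Gas6 in cKO M1, with a range of 5.74 to 13.4. Mfge8 (214 TPM) and Gas6 (181 TPM) came next after Lrp1 in WT M0, Axl (142 TPM) and Mertk (93.1 TPM) in WT M1, and Itgb5 (327 TPM) and Axl (174 TPM) in WT M2. On the CPM scale the highest level over the lowest was 30.0 for Gas6, 14.8 for Itgb5, 11.4 for Itgav and 10.2 for Axl. It was 8.57 for Mfge8, 7.34 for Mertk, 3.59 for Lrp1 and 2.06 for Pros1.

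**Figure D1:**
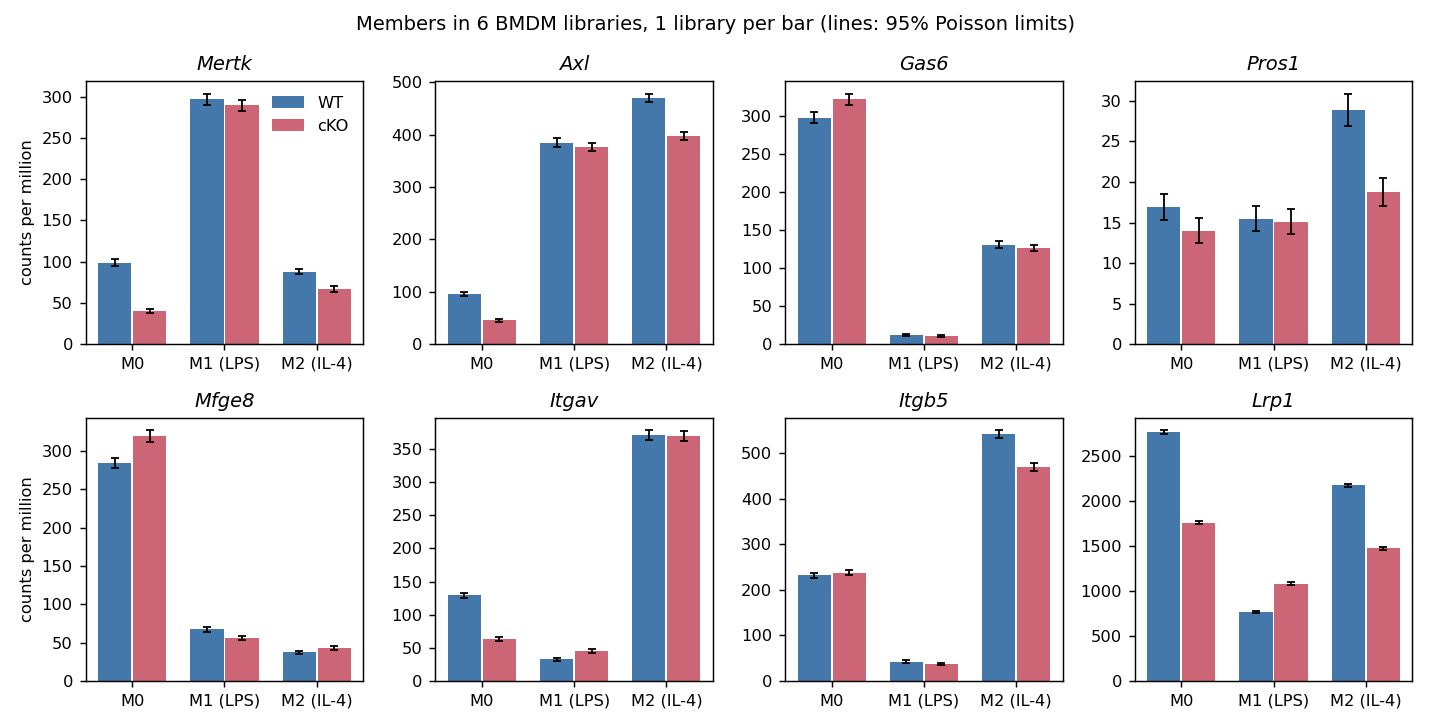
CPM of each of the 8 genes in the 6 BMDM libraries, on a linear axis. WT and cKO are separate bars at M0, M1 and M2, each bar is 1 library and lines are 95% counting limits. Gas6 drops from 298 and 322 at M0 to 11.6 and 10.7 at M1, while Mertk and Axl have their lowest bars in the cKO M0 library.

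Between genotypes, a gene was called at a fold of at least 1.2 on log2(CPM + 1) if the libraries averaged 10 counts or more, and intervals are 95% Clopper-Pearson limits on the counts, which cover counting error only. In M0, 4 of the 8 genes were called lower in cKO and none higher, where 54% of all tested genes were called (29% lower, 25% higher). In M1, 3 of 8 were called, 2 higher and 1 lower, against 35.9% of all genes (22.6% higher, 13.3% lower). In M2, 3 of 8 were called, all lower, against 30.7% of all genes (17.3% higher, 13.4% lower). Over the 8 genes the median log2 fold change stood at -0.45 in M0, -0.03 in M1 and -0.22 in M2, beside -0.01, 0.03 and 0.01 over all tested genes. The untreated libraries gave the largest differences among the 8, carried by both TAM receptors and the αv chain.

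Between treatments, 7 of the 8 genes were called in M1 against M0 in each genotype, 2 higher and 5 lower. Of all tested genes 84.8% were called in WT and 85.5% in cKO, with 63% and 60.5% lower and 21.7% and 25% higher, so that a call was common there. In M2 against M0, 7 of 8 were called in each genotype, 4 higher and 3 lower in WT and 5 higher and 2 lower in cKO. Of all tested genes 64.4% (41.3% higher, 23.1% lower) were called in WT and 70.9% (44.7% higher, 26.2% lower) in cKO. Each of these comparisons shares its M0 library with the M0 genotype comparison. On library totals the median of all genes moved by -0.58 (WT) and -0.55 (cKO) after LPS and by 0.15 and 0.17 after IL-4. With TMM scaling, which sets most genes near 0, these medians were -0.07, -0.08, 0.03 and -0.03. Higher genes made up 25.6% (WT) and 29.3% (cKO) of the LPS calls on library totals but 46.7% in both with TMM. After IL-4 they made up 64.1% and 63.1% on library totals and 52.9% and 48.7% with TMM. TMM values are therefore printed beside the treatment values of the 8 genes, while treatment values of other pathway genes are on library totals.

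An added fit, chosen after seeing the data, took the 6 BMDM libraries together as treatment plus genotype (edgeR quasi-likelihood test with TMM, Benjamini-Hochberg adjusted over 13074 genes). Its spread is the departure of the libraries from an equal genotype difference in every treatment, with 2 residual degrees of freedom. For cKO against WT over the 3 treatments 0 genes (0%) passed an adjusted p of 0.05 in edgeR, and 403 had an unadjusted p under 0.05. Mertk stood at -0.58 (edgeR adjusted p = 0.999, unadjusted p = 0.056), Axl at -0.45 and Pros1 at -0.32, each lower in cKO in 3 of 3 treatments, and the other 5 genes at -0.25 to 0.03. On library totals the M1 differences of Mertk, Axl and Pros1 were -0.04, -0.03 and -0.03, each with counting limits on both sides of 0. In TPM these 3 genes stood higher in cKO than in WT in M1. Mertk was at 96.1 against 93.1, Axl at 158 against 142 and Pros1 at 6.94 against 6.69. A genotype difference held by 1 treatment adds to the spread of this fit, so the M0 differences by themselves are not tested by it. For M1 against M0 over both genotypes 6 of the 8 genes passed (edgeR adjusted p of 0.000151 to 0.0389), where 50.8% of all genes did, and Itgav (-0.60, adjusted p = 0.19) and Lrp1 (-0.59, adjusted p = 0.171) did not. Of the 6, Mertk (2.84), Axl (3.16) and Pros1 (0.64) were higher and Gas6 (-4.14), Mfge8 (-1.63) and Itgb5 (-1.93) lower. Each had the same sign in both genotypes on library totals as well, other than Pros1, whose WT value was below 0 there. For M2 against M0 5 of the 8 passed (adjusted p of 0.000531 to 0.0218), where 20.8% of all genes did. Axl (2.50), Itgav (1.81) and Itgb5 (0.93) were higher and Gas6 (-1.44) and Mfge8 (-3.08) lower, each in both genotypes. Both M2 libraries also stood apart from M0 in neutrophil markers (above). The fit cannot tell IL-4 apart from another difference that the M2 libraries share.

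Mertk, the TAM receptor most tied to clearance by macrophages, stood at 98.8, 297 and 88.1 CPM in WT M0, M1 and M2 and at 40.4, 289 and 66.8 CPM in cKO. It was lowest in the cKO M0 library (913 counts) and highest in both M1 libraries, which did not differ beyond counting error. In cKO against WT it was 2.41-fold lower in M0 (log2 fold change -1.27, limits -1.38 to -1.16) and 1.31-fold lower in M2 (-0.39, limits -0.48 to -0.31). In M1 the difference was -0.04 (limits -0.08 to 0.01) and was not called. After LPS Mertk was higher by 1.58 in WT and 2.81 in cKO on the log2 scale (2.19 and 3.36 with TMM). After IL-4 it was called higher in cKO (0.71, and 0.49 with TMM) and not called in WT (-0.16, and called lower at -0.30 with TMM). The genotypes thus stood apart before treatment and close to each other after LPS.

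Axl, the TAM receptor known to be induced by inflammatory signals, stood at 95.6, 385 and 470 CPM in WT M0, M1 and M2 and at 46.0, 377 and 397 CPM in cKO. Both M0 libraries were below the other 4, with cKO the lower one. In M0 it was 2.06-fold lower in cKO (-1.04, limits -1.14 to -0.94). It was not called in M1 (-0.03, limits -0.07 to 0.01) or in M2 (-0.25, limits -0.28 to -0.21), and in M2 the value lay next to the threshold and was called lower with TMM (-0.30). LPS gave log2 fold changes of 1.998 in WT and 3.01 in cKO (2.62 and 3.56 with TMM), and IL-4 gave 2.29 and 3.08 (2.15 and 2.85 with TMM). Axl was thus higher after either treatment and in either genotype, whereas Mertk was higher in both genotypes after LPS alone. In TPM, Axl over Mertk was 1.12 and 1.06 in WT and cKO M0, 1.53 and 1.65 in M1, and 6.31 and 7.40 in M2.

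Gas6, the ligand shared by the TAM receptors, stood at 298, 11.6 and 131 CPM in WT M0, M1 and M2 and at 322, 10.7 and 127 CPM in cKO. The 2 M1 libraries held 290 and 251 counts against 7802 and 7270 in M0. LPS gave log2 fold changes of -4.56 in WT and -4.78 in cKO (-3.97 and -4.26 with TMM), folds of 23.6 and 27.6 and the largest of the 8 genes in either genotype. IL-4 gave -1.18 and -1.34 (-1.32 and -1.56 with TMM). Gas6 was not called between genotypes in M0 (0.11, limits 0.07 to 0.16), M1 (-0.11, limits -0.34 to 0.12) or M2 (-0.05, limits -0.11 to 0.02). Ligand and receptor thus lay at opposite ends by treatment: in TPM, Gas6 over Axl was 5.13 (WT) and 12.2 (cKO) in M0, 0.0473 and 0.0414 in M1, and 0.464 and 0.523 in M2.

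Pros1 encodes protein S, a plasma anticoagulant that also binds Mertk. It stood at 16.9, 15.4 and 28.9 CPM in WT M0, M1 and M2 and at 14.0, 15.1 and 18.7 CPM in cKO. The WT M2 library was above the rest, and from cKO M2 downward no neighbours in the order of levels were apart beyond counting error. In cKO against WT it was 1.51-fold lower in M2 (-0.60, limits -0.76 to -0.44). The M0 difference of -0.25 (limits -0.45 to -0.06) lay next to the threshold and was called lower in TPM (-0.47). After LPS it was not called on library totals in WT (-0.12) or cKO (0.10), but with TMM it was called higher in both (0.47 and 0.63), so its sign in WT turned with the scaling. IL-4 gave 0.74 in WT (0.61 with TMM) and 0.40 in cKO, of which the cKO value was not called with TMM (0.18).

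Mfge8, the bridge from phosphatidylserine to αv integrins, stood at 284, 67.6 and 37.3 CPM in WT M0, M1 and M2 and at 320, 56.0 and 43.5 CPM in cKO. Every neighbouring pair in the order of its 6 levels was apart beyond counting error, and both M0 libraries were above the other 4. LPS gave log2 fold changes of -2.06 in WT and -2.49 in cKO (-1.44 and -1.94 with TMM). IL-4 gave -2.89 and -2.85 (-3.02 and -3.07 with TMM), folds of 7.43 and 7.21 and the largest lower values among the 8 in that comparison. Between genotypes, Mfge8 was called only in M1, where it was 1.203-fold lower in cKO (-0.27, limits -0.37 to -0.16), next to the threshold and not called in TPM (-0.17). It was not called in M0 (0.17) or M2 (0.21).

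The summed TPM of the bridging molecules (Gas6, Pros1 and Mfge8) was 403 in WT and 371 in cKO in M0, 61.99 and 56.5 in M1, and 123 and 118 in M2. That of the TAM receptors (Mertk and Axl) was 66.6 and 26.0 in M0, 235 and 254 in M1, and 201 and 166 in M2. The bridging sum was above the receptor sum in both M0 libraries and below it in the other 4. Gas6 over Pros1 in TPM was 21.6 (WT) and 28.4 (cKO) in M0, 1.01 and 0.945 in M1, and 6.03 and 9.004 in M2.

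**Figure D2:**
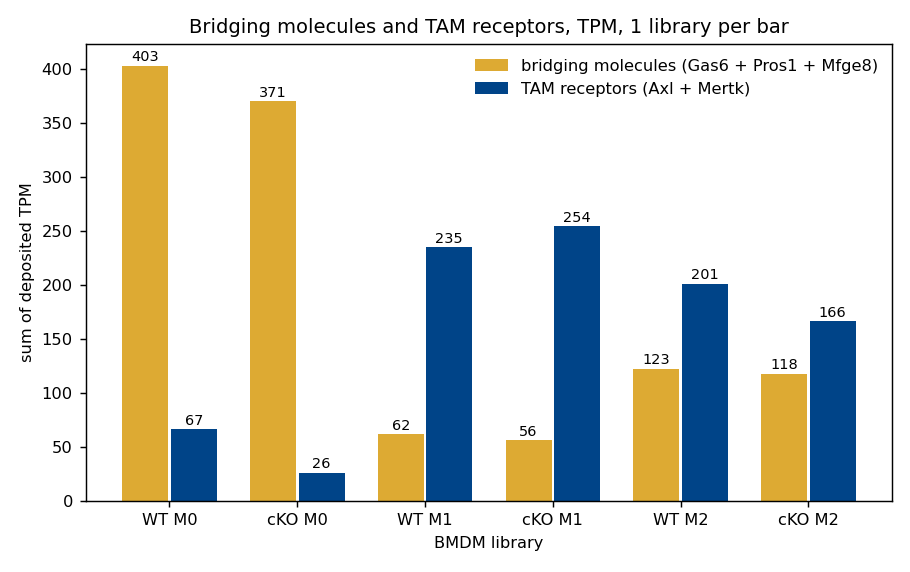
Summed deposited TPM of the bridging molecules (Gas6, Pros1, Mfge8) and of the TAM receptors (Mertk, Axl) in each of the 6 BMDM libraries, bars from 0, 1 library per bar and no error available. The bridging sum is 403 and 371 in the M0 libraries and 56.5 to 123 in the others, while the receptor sum is lowest in cKO M0 at 26.0.

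Itgav and Itgb5 encode the 2 chains of αvβ5, a receptor for Mfge8-coated cells. Itgav stood at 129, 32.6 and 371 CPM in WT M0, M1 and M2 and at 63.3, 45.5 and 369 CPM in cKO. Itgb5 stood at 232, 42.2 and 541 CPM in WT and at 238, 36.6 and 470 CPM in cKO. Both genes had their lowest levels in M1 and their highest in M2. In M0, Itgav was 2.02-fold lower in cKO (-1.02, limits -1.11 to -0.93) whereas Itgb5 was not called (0.04, limits -0.02 to 0.09). In M1, Itgav was 1.38-fold higher in cKO (0.47, limits 0.34 to 0.60) and Itgb5 was not called (-0.20). In M2 neither was called (-0.01 and -0.20), although Itgb5 was called lower with TMM (-0.26).

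LPS gave Itgav log2 fold changes of -1.95 in WT and -0.47 in cKO. The cKO value was 0.08 with TMM and 0.10 with median ratio scaling, so its sign turned with the scaling, whereas in TPM it was called lower (-0.91) and centred on genes of like length, an alternative described with gene length below, it was -0.15 and not called. The WT value was -1.34 with TMM and -1.16 centred on length. Itgb5 was lower after LPS by either scaling, at -2.43 and -2.67 (-1.82 and -2.12 with TMM). IL-4 gave 1.52 and 2.53 for Itgav (1.38 and 2.30 with TMM) and 1.22 and 0.98 for Itgb5 (1.08 and 0.75 with TMM). In TPM, Itgb5 over Itgav was 4.28 and 5.66 in WT and cKO M0, 2.71 and 2.06 in M1, and 3.46 and 3.26 in M2, so the β5 transcript exceeded the αv transcript in each library.

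Lrp1 stood at 2760, 768 and 2172 CPM in WT M0, M1 and M2 and at 1755, 1080 and 1471 CPM in cKO, with 19132 to 72330 counts. Each neighbouring pair of levels was apart beyond counting error. In cKO against WT it was 1.57-fold lower in M0 (-0.65, limits -0.67 to -0.64), 1.40-fold higher in M1 (0.49, limits 0.46 to 0.52) and 1.48-fold lower in M2 (-0.56, limits -0.58 to -0.54). LPS gave -1.84 in WT and -0.70 in cKO, and with TMM these were -1.22 and -0.14, the latter not called. The cKO value was called lower in TPM (-1.17) and centred on genes of like length (-0.62), and the WT value was -1.02 centred on length. IL-4 gave -0.35 in WT (-0.48 with TMM) and -0.25 in cKO, of which the cKO value was not called on library totals but was with TMM (-0.48), in TPM (-0.86) and centred on genes of like length (-1.06). The WT value was -0.41 in TPM and -0.70 centred on length.

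**Figure D3:**
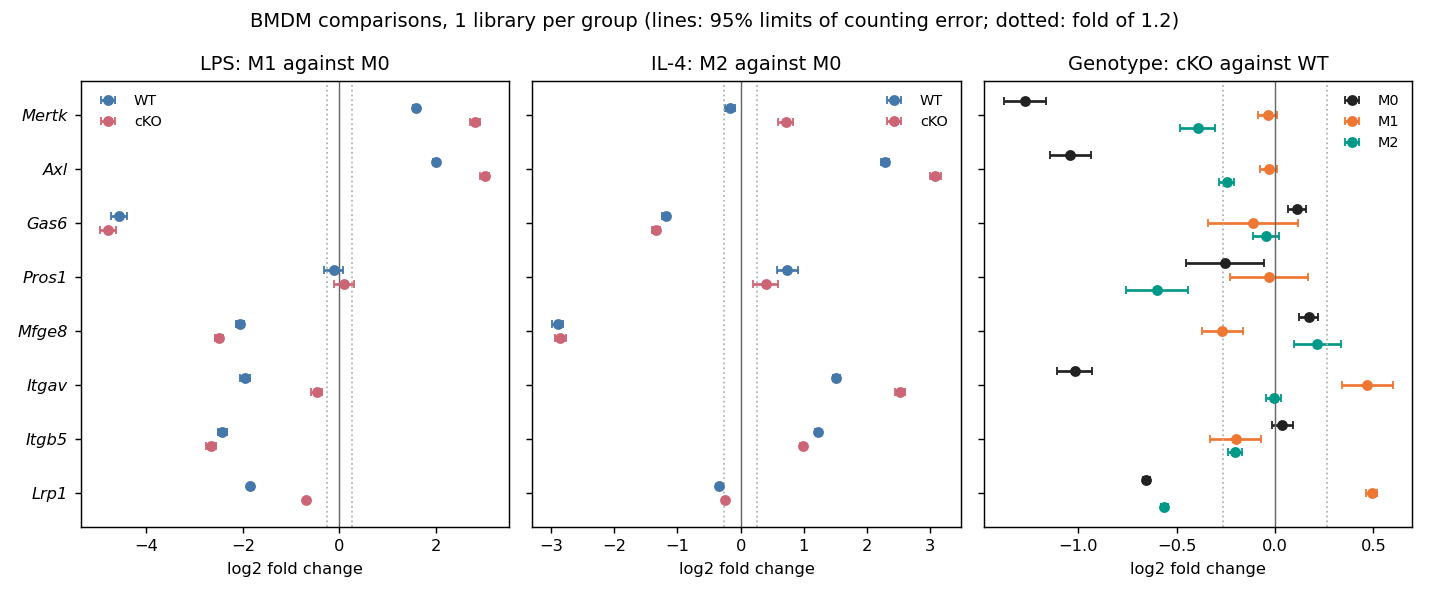
Log2 fold change, log2(CPM + 1), of each of the 8 genes for cKO against WT in M0, M1 and M2 and for M1 or M2 against M0 in each genotype, 1 library against 1, with 95% counting limits. Mertk, Axl, Itgav and Lrp1 are below 0 in the M0 genotype comparison (-1.27 to -0.65), and Gas6 has the lowest values after LPS (-4.56 and -4.78).

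The values of the longest genes moved with gene length. In M0, the log2 fold change had a median over all genes of 0.40 in the shortest and -0.47 in the longest of 20 bins of exonic length, and in M1 it was -0.06 and 0.33. In M2 it was 0.06 and -0.06. After LPS the medians of the shortest and longest bins were -0.26 and -0.82 in WT but -0.72 and -0.08 in cKO, opposite slopes, and after IL-4 they were 0.12 and 0.35 in WT and -0.19 and 0.81 in cKO. Lrp1 (17717 exonic bases) and Itgav (10744) are the longest of the 8, while the others have 2548 to 5033. With each gene's bin median subtracted, an alternative chosen after seeing the data, M0 values were -1.24 for Mertk, -0.99 for Axl, -0.69 for Itgav and -0.18 for Lrp1, so that Lrp1 was not called. In M1 the values were 0.28 for Itgav and 0.16 for Lrp1, again with Lrp1 not called, and in M2 Lrp1 kept -0.50. In the deposited TPM, Lrp1 differed by -0.09 in M0, and none of the 8 was called in M1. Counts per TPM, relative to the median gene and to WT M0, were 0.57 for Lrp1 and 0.60 for Itgav in cKO M0, where 90% of genes lay between 0.823 and 1.15. For Mertk the ratio was 0.85 and for Axl 1.06 in cKO M0. In WT M1 it was 0.75 for Lrp1 and 0.78 for Itgav, where 90% of genes lay between 0.806 and 1.12. The part of length in the results was not tested further.

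**Figure D4:**
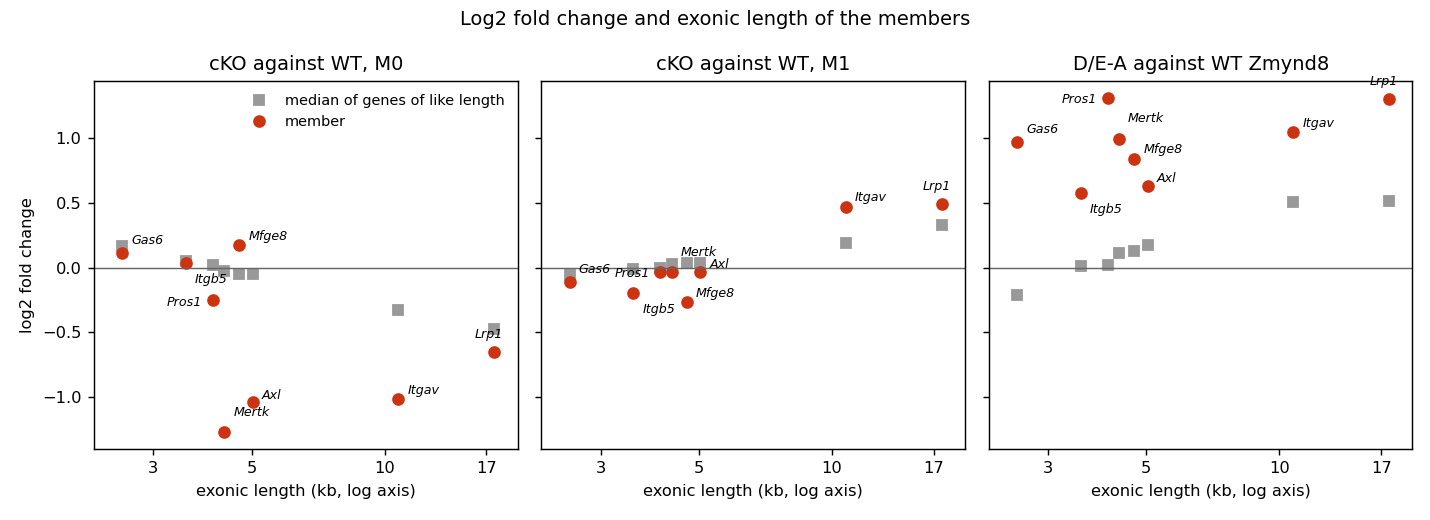
Log2 fold change (y axis) against exonic length in kilobases (log axis) for the 8 genes, circles, and the median of all genes of like length, squares, in 3 comparisons of 1 library with 1 library. The comparisons are cKO against WT in M0, cKO against WT in M1, and D/E-A against the Zmynd8 rescue. In M0, Mertk and Axl lie at -1.27 and -1.04 where genes of their length lie near 0, while Lrp1 lies at -0.65 near its bin median of -0.47.

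The rest of the pathway was read from 6 lists holding 96 genes. In M0, 12 other recognition receptors passed the count filter, 4 called higher and 3 lower in cKO (median 0.03), among them Cd14 (1.01), a receptor for LPS and apoptotic cells, and Itgam (-0.72). Of 9 other bridging molecules 2 were higher and 1 lower, the latter being thrombospondin Thbs1 (-1.56). Of 17 genes of the engulfment machinery 2 were higher and 7 lower, among them Rac2 (0.36), a small GTPase of the actin machinery, and Trio (-1.16), an exchange factor for small GTPases. Of 15 genes for shedding and regulation of the receptors 4 were higher and 5 lower, with the sheddase Adam10 at -0.47. Of 18 genes of corpse digestion and lipid efflux 4 were higher and 6 lower, with the cholesterol transporters Abca1 and Abcg1 at -1.58 and -0.92. Of 10 find-me and do-not-eat-me genes 5 were higher and 1 lower, the latter being Cd47 (-0.48). The share of calls in these lists ran from 33.3% to 60% beside the 54% of all genes. Genes in the longest bin had a median of -0.47 and those in the shortest 0.40 in this comparison (above), and the part of length in these counts and values was not tested.

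In M1, where 22.6% of all genes were higher and 13.3% lower, the engulfment machinery had 6 genes higher in cKO and none lower of 17, with Trio at 0.50, and the other recognition receptors 7 higher and 2 lower of 14, with Itgam at 0.66 and the scavenger receptor Cd36 at 0.68. The digestion list had 2 higher and 3 lower of 18, and the regulation list 2 higher and 4 lower of 15. Other bridging molecules had 1 higher and 2 lower of 8 and the find-me list 4 higher and 2 lower of 10. Thbs1 was at 0.84 and the sheddase Adam17 at 0.48. With TMM the engulfment machinery had 5 higher and none lower and the recognition receptors 7 higher and 3 lower. The longest genes had a median of 0.33 in this comparison (above), and the part of length in these counts was not tested. In M2, where 17.3% of all genes were higher and 13.4% lower, the digestion list had 1 higher and 5 lower of 18 (1 and 6 with TMM), and the regulation list 3 higher and 4 lower of 15 (2 and 5 with TMM), with Socs3, an inhibitor of cytokine signalling, at 1.68 and Pparg at -0.74. The recognition receptors had 3 higher and 3 lower of 15, the bridging molecules 1 and 3 of 9, the find-me list 2 and 2 of 11 and the engulfment machinery 1 and 2 of 17 (0 and 4 with TMM).

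After LPS, where 63% (WT) and 60.5% (cKO) of all genes were lower on library totals, the counts of the lists moved with the scaling. In WT, other recognition receptors had 3 genes higher and 9 lower of 15 (median -1.43), and 5 and 8 with TMM, with Cd36 at -3.26 and Cd300lf at 2.28. In cKO they had 4 higher and 9 lower of 13 by either scaling. The engulfment machinery had 4 higher and 12 lower of 17 in WT but 6 and 5 with TMM, and 4 higher and 6 lower in cKO but 11 and 3 with TMM. Digestion and lipid efflux had 3 higher and 10 lower of 18 in WT (8 and 9 with TMM) and 6 and 10 in cKO (8 and 8 with TMM). Other bridging molecules had 1 higher and 7 lower of 9 in WT (2 and 3 with TMM) and 1 and 8 in cKO (1 and 4 with TMM). The find-me list had 2 higher and 7 lower of 10 in WT (3 and 6 with TMM) and 3 and 8 of 11 in cKO (3 and 6 with TMM). The regulation list had 5 higher and 7 lower of 15 in WT and 7 and 7 in cKO (8 and 7 in both with TMM). Dock1, an exchange factor of the engulfment machinery, was at -3.33 in WT and -2.54 in cKO. The nuclear receptor Pparg was at -3.87 and -4.04, and Adam10 at -1.79 in WT. Socs1 (5.65 and 5.61) and Socs3 (7.59 and 8.10), inhibitors of cytokine signalling, were the highest of the regulation list. After IL-4, where 41.3% (WT) and 44.7% (cKO) of all genes were higher, that list had 11 higher and none lower of 15 in WT (median 1.10, and 11 and 2 with TMM), and the complement bridge C1qa was at 3.51, with 43424 counts against 3489. In cKO the regulation list had 10 higher and 2 lower of 15 (median 0.68, and 9 and 3 with TMM), with C1qa at 3.69. Digestion and lipid efflux had 11 of 18 higher and 4 lower in WT (10 and 6 with TMM) and 8 and 4 in cKO (6 and 6 with TMM), with Abca1 at 2.23 in cKO. The recognition receptors had 6 higher and 5 lower of 15 in WT (4 and 7 with TMM) and 6 and 5 of 14 in cKO (4 and 6 with TMM). The bridging molecules had 4 and 4 of 9 in WT (4 and 5 with TMM) and 3 and 5 in cKO by either scaling. The find-me list had 5 higher and 3 lower of 10 in WT (4 and 3 with TMM) and 6 and 4 in cKO (4 and 4 with TMM). The engulfment machinery had 4 and 5 of 17 in WT by either scaling and 7 and 4 in cKO (4 and 5 with TMM). Neutrophil markers also stood higher in both M2 libraries than in M0 (above), and their part in the IL-4 values was not tested. The part in these LPS and IL-4 list counts of the length trends given above was not tested either.

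The genes whose levels followed Mertk most closely over the 6 BMDM libraries, by Pearson's r on log2(CPM + 1) among 9933 genes, were Mdfic (0.998), Aftph (0.994) and Irf7 (0.993), the last an interferon regulatory factor at 503, 4293 and 450 CPM in WT and 144, 3585 and 408 CPM in cKO. For Axl they were Mtus1 (0.998), Ric1 (0.997) and Arap1 (0.996). An r above 0.9 was reached by 589 genes for Mertk and 306 for Axl, so with 6 libraries in 3 conditions these are descriptions. Mertk and Axl had an r of 0.58 with each other, Mertk and Gas6 -0.92, and Axl and Mfge8 -0.97.

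In Raw264.7 cells, calls used log2(deposited value + 1), a fold of at least 1.2 and a mean value of at least 1. Reads recovered from the values totalled 15127110 to 21042628 in each library. In D/E-A against the Zmynd8 rescue all 8 genes were called higher, where 72.6% of all genes were called and 36.7% were higher and 35.9% lower. In Zmynd8 KO against the same rescue library all 8 were also called higher, where 70.3% were called and 33.8% were higher and 36.5% lower. The median over the 8 was 0.98 in D/E-A and 0.45 in KO, beside 0.02 and -0.03 over all genes. The comparisons share the rescue library, so they are not separate evidence of direction.

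Lrp1 had 3971 reads in D/E-A, 2501 in KO and 1691 in the rescue, log2 fold changes of 1.30 (limits 1.22 to 1.38) and 0.44 (limits 0.35 to 0.53). Pros1 had 430, 370 and 181 reads, giving 1.31 (limits 1.06 to 1.57) and 0.91 (limits 0.65 to 1.17). Itgav had 1557, 1124 and 791 reads, giving 1.04 and 0.39. These 3 were the genes past a fold of 2 in D/E-A on the deposited values, but after subtraction of the median of genes of like length Lrp1 was at 0.78 and Itgav at 0.54, while Pros1 was at 1.29 and Gas6 at 1.18. Mertk had 1794, 1247 and 943 reads, giving 0.99 (limits 0.88 to 1.11) and 0.28 (limits 0.16 to 0.41), the latter next to the threshold and not called with TMM (0.26) or in RPM (0.21). Axl had 11544, 13789 and 7801 reads, giving 0.63 and 0.70. Gas6 had 346, 408 and 185 reads, giving 0.97 and 1.02. The values of Axl and Gas6 lay close together in the 2 lines, while those of Lrp1, Itgav and Mertk were farther from 0 in D/E-A, and the difference between the lines was not tested. Mfge8 had 192, 158 and 112 reads, giving 0.84 and 0.37, the latter with limits of 0.02 to 0.73 and not called with the binomial test. Itgb5 had 1457, 1537 and 1025 reads, giving 0.57 and 0.46.

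Gene length moved with these values too. Bin medians ran from -0.85 in the shortest to 0.52 in the longest bin in D/E-A and from -0.36 to 0.19 in KO. With the bin median subtracted, all 8 stayed called higher in D/E-A (0.46 for Axl to 1.29 for Pros1), while in KO 4 did: Gas6 (1.10), Pros1 (0.80), Axl (0.58) and Itgb5 (0.39). The neutrophil marker sum was lower than in the rescue in D/E-A (4422 against 10384 RPM) and in KO (6966 against 10353). The macrophage marker sum was higher in D/E-A (10155 against 5668 RPM) and in KO (7221 against 5651). Their part in the 8 genes' values was not tested, and in bulk RNA fewer cells of a type and less RNA per cell cannot be told apart.

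In the same comparisons 36.7% (D/E-A) and 33.8% (KO) of all genes were higher. The engulfment list had 13 of 17 genes higher and 1 lower in D/E-A (median 0.58), and 12 of 18 higher and 1 lower in KO (median 0.44), with Dock1 at 1.49 and 0.76 and its partner Elmo1 at 1.23 and 0.76. The regulation list had 10 higher and 4 lower of 16 in D/E-A and 8 higher and 1 lower of 16 in KO, with Socs3 at 1.498 in D/E-A. Digestion and lipid efflux had 7 higher and 3 lower of 17 in D/E-A and 6 and 3 of 19 in KO. In that list the endosomal GTPase Rab5a was at 1.31 and 0.93 and the lysosomal nuclease Dnase2a at -1.28 and -0.74. Other recognition receptors had 5 higher and 8 lower of 17 in D/E-A (median -0.19) and 7 higher and 4 lower of 19 in KO. Other bridging molecules had 2 higher and 3 lower of 8 in D/E-A and 4 higher and 1 lower of 9 in KO. The find-me list had 4 higher and 2 lower of 10 in D/E-A and 4 and 3 of 11 in KO. The part in these counts of the length trend given above was not tested. The D/E-A table leaves out genes with few reads in the rescue, where the lowest value is 21 reads.

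**Figure D5:**
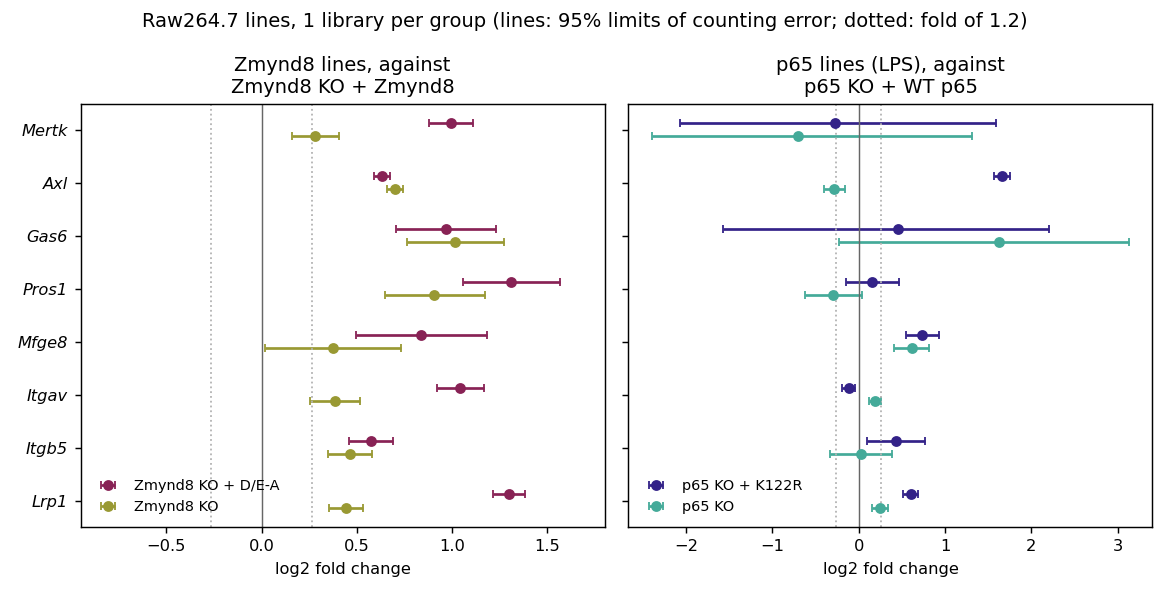
Log2 fold change, log2(deposited value + 1), of the 8 genes in the 4 Raw264.7 comparisons, 1 library against 1, with 95% counting limits. All 8 lie above 0 in D/E-A (0.57 to 1.31) and Zmynd8 KO (0.28 to 1.02), and Axl lies at 1.66 in K122R and -0.28 in p65 KO; Mertk and Gas6 have at most 8 reads in the p65 lines and are not interpretable there.

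In the p65 lines after LPS, Mertk and Gas6 were near 0. Mertk had 3 reads in K122R, 2 in p65 KO and 4 in p65 KO + WT, and Gas6 had 3, 8 and 2. No direction is read from them, although the fold rule marks all 4 pairs. In the Zmynd8 lines the same genes stood at 51.3 to 100.1 RPM and 10.1 to 19.4 RPM. The tables were normalized separately and the lines stand apart in Xist and in neutrophil and B cell genes, so these levels are set side by side without a comparison.

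Axl had 3942 reads in K122R, 1028 in p65 KO and 1295 in p65 KO + WT. It was 3.16-fold higher in K122R than in WT p65 (log2 fold change 1.66, limits 1.57 to 1.752) and 1.22-fold lower in p65 KO (-0.28, limits -0.40 to -0.16), next to the threshold and not called with TMM (-0.25). Both comparisons share the p65 KO + WT library. In K122R, 6 of the 8 were called, 5 higher and 1 lower, with Mertk and Gas6 among them, against 63.3% of all genes (30.8% higher, 32.5% lower). In p65 KO, 5 of the 8 were called, 2 higher and 3 lower, again with both, against 51.9% (26.3% higher, 25.7% lower). With TMM it was 3 higher (Gas6, Mfge8 and Lrp1) and 0 lower.

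Mfge8 had 564, 519 and 351 reads in K122R, p65 KO and p65 KO + WT, giving 0.74 (limits 0.54 to 0.93) and 0.61 (limits 0.41 to 0.81). Lrp1 had 2530, 1985 and 1730 reads, giving 0.60 (limits 0.51 to 0.69) and 0.25, the latter not called. Itgb5 had 173, 131 and 133 reads, giving 0.43 (limits 0.10 to 0.77) and 0.03. Its K122R value was not called in RPM (10.4 against 8.49) or with the binomial test. Itgav had 2943, 3666 and 3320 reads and was called in neither comparison (-0.12 and 0.19). Centred on genes of like length, the p65 KO values of Itgav (0.30) and Lrp1 (0.41) were called higher. Pros1 had 186, 136 and 173 reads, giving 0.16 (not called) and -0.30 with limits of -0.63 to 0.03. Axl was thus the gene that stood farthest from WT p65 in K122R, with Rela itself at 351 RPM there against 102.

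Among other bridging molecules, 8 of 9 were called higher and none lower in p65 KO (median 0.91), where 26.3% of all genes were higher, and with TMM 7 were higher and none lower (median 0.55), with annexin A1 (Anxa1) at 1.03 and galectin 3 (Lgals3) at 0.98. In K122R, where 30.8% of all genes were higher and 32.5% lower, 5 of 9 were higher and 4 lower (4 and 3 with TMM), with Lgals3 at 1.77, Anxa1 at 1.56 and Thbs1 at -1.53 on 19 against 59 reads. Other recognition receptors had 12 of 18 higher and 3 lower in p65 KO but 6 and 1 with TMM (median 0.46, and 0.18 with TMM), with Cd36 at 0.64, and 7 higher and 5 lower of 17 in K122R (6 and 2 with TMM), with the lectin-like receptor Olr1 at 2.47. The regulation list had 9 of 15 higher and none lower in K122R (8 and none with TMM), with Klf4 at 1.23, and 8 higher and 1 lower in p65 KO. The engulfment list had 3 higher and 6 lower of 17 in K122R (5 and 6 with TMM) and 1 and 2 in p65 KO. Digestion and lipid efflux had 7 higher and 4 lower of 18 in K122R and 4 and 5 in p65 KO, and the find-me list 4 and 1 of 9 in K122R and 4 and 2 of 11 in p65 KO.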

How the data were processed

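RNA was sequenced from 12 groups of 1 library each, polyadenylated RNA in the BMDM libraries, while the library method of the Raw264.7 libraries was not given in the sources used here. The BMDM reads were mapped by the authors to the mm10 transcriptome (TopHat), and the authors deposited estimated counts per gene, not all of them whole, and TPM. For Raw264.7 cells the authors deposited a normalized signal per gene, whose aligner is not given in the sources used here. The submitters' processing notes also name CASAVA 1.4 and Bowtie 0.12.2. The authors' own fold changes and p-values were not used, nor were 2 unlabelled columns of values.

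Estimated counts were rounded to whole counts and divided by library totals (CPM). Entries that name no gene (431 in M0 and in M1, 2 in M2) held 0 counts. The Raw264.7 signal was a whole number of reads times 1 constant per library within 0.02 reads (a tolerance widened in proportion to the value for genes of many reads) for 100% of values, apart from Zmynd8 in the Zmynd8 KO library. A count-based exact binomial test on those reads, comparing libraries and not conditions, together with the fold rule called 7910 genes in D/E-A, 6971 in Zmynd8 KO, 5354 in K122R and 2712 in p65 KO. Fold changes used a pseudocount of 1. The design foresaw these rules for tables with 1 library in each group. The scripts were tested on simulated data.

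The members and gene lists were chosen with earlier results of these data known. Named genes were the 8 members and, in each pathway list and comparison, up to 2 called genes at each end among those averaging 100 counts (or a value of 10) or more, the 3 genes most like Mertk and Axl, and the genes used to check the labels. Some genes that this rule names are not reported here. Itgam and Cd14 are also in the macrophage marker list. Alternatives were a pseudocount of 0.1, no filter, TMM and median ratio scaling, a fold of at least 2, the binomial test (adjusted p under 0.05), TPM or RPM and, added after seeing the data, centring on 20 bins of gene length and an edgeR quasi-likelihood fit of treatment and genotype over the BMDM libraries (genes averaging 10 counts or more). Python 3.11.15, numpy 2.4.6, pandas 2.3.3, scipy 1.17.1, R 4.3.3 and edgeR 4.0.16 (TMM and the added fit) were used. Intervals cover counting error only.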

Additional observations from a re-analysis of the deposited data

Results flagged for a closer look

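In BMDMs, Itgav was higher in cKO than in WT in M1 (log2 fold change 0.47) and lower in M0 (-1.02), opposite directions of the genotype difference in 2 treatments. Lrp1 was higher in cKO in M1 (0.49) and lower in M0 (-0.65) and M2 (-0.56). In Raw264.7 cells, Axl was higher in K122R than in WT p65 (1.66) and lower in p65 KO (-0.28). The p65 KO value of Axl was not called with TMM (-0.25). None of these differences between conditions was tested, since 1 library in each group leaves no spread for an interaction. Both BMDM genes are the longest of the 8, and after subtraction of the median of genes of like length Itgav was at 0.28 in M1 and -0.69 in M0, and Lrp1 at 0.16, -0.18 and -0.50 in M1, M0 and M2, so that Lrp1 was called in neither M0 nor M1. In TPM, Itgav was at 0.16 in M1 (not called) and -0.53 in M0, and Lrp1 at 0.24 in M1 and -0.09 in M0, neither called.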

How the results depend on the processing

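With 1 library in each group no replicate could be left out and no replicate number pairs samples. The edgeR fit that pairs the genotypes by treatment called 0 genes between genotypes. Over 8 alternatives, 1 of them chosen after seeing the data, the number of the 8 genes called stayed within 1.5 times the main number in 74 of 88 cases. At a fold of at least 2 it was 0 in M1 and 0 in M2 between genotypes, 4 after IL-4 in cKO, 3 in D/E-A, 1 in Zmynd8 KO, 1 in K122R and 1 in p65 KO. In TPM it was 0 in the M1 genotype comparison. With TMM it was 5 in the M2 genotype comparison and 3 in p65 KO. With the binomial test it was 3 in K122R and 2 in p65 KO, in RPM 3 in K122R, and centred on gene length 4 in Zmynd8 KO. After LPS, Pros1 in WT turned to 0.47 with TMM, 0.46 with the median ratio and 0.45 centred on length, and Itgav in cKO to 0.083 with TMM and 0.10 with the median ratio. The cause was not tested. Of 704 values of single genes under an alternative, 610 kept their call or stayed uncalled, 69 lost the call and 20 gained it. Another 5 turned sign with a call in at least 1 of the 2 settings. Turns of sign among values called in neither setting are not counted apart from the 610.

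Over all genes, calls at a fold of at least 2 fell to 477, 112 and 261 between genotypes (M0, M1, M2), 5548 and 5825 after LPS (WT, cKO), 2124 and 2740 after IL-4, 2345 in D/E-A, 5460 in Zmynd8 KO, 3926 in K122R and 3149 in p65 KO. The binomial test left 6971 of 14978 calls in Zmynd8 KO, 5354 of 12453 in K122R and 2712 of 10325 in p65 KO, where TMM left 6121 and RPM 5954. The share of higher calls moved from 46.3% to 22.0% in M0 and from 63.1% to 76.6% after IL-4 in cKO in TPM, from 62.8% to 51.4% in M1 with the median ratio, from 56.5% to 44.5% in M2 with TMM and from 48.6% to 31.3% in K122R in RPM. Mertk and Gas6 in the p65 lines had at most 8 reads, so no direction is read from them.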
